A study of Mus musculus with 4 samples.

Results

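Astrocyte-gated reporter cells are cells of tumor tissue that carried transcripts of the MYCN transgene together with several astrocyte genes, and they were picked out of 4 mouse high-grade gliomas by a rule on single-cell transcript counts. A member had at least 1 unique molecular identifier (UMI, a tag that marks 1 captured mRNA molecule) of firefly luciferase (FLUC) or human MYCN, the 2 reporter transcripts. It also had UMIs of at least 3 different genes among Gfap, Aldoc, Nnat, Serpina3n, Igfbp5, Mt3, C4b and Ntrk2, here called the 8 gate genes. At most 1 of Sox10, Olig1 and Bcas1, at most 1 of Stmn2, Neurod1 and Stmn3, and at most 1 of Rgs5, Vtn, Cldn5 and Flt1 was allowed, which left out most oligodendrocytic, neuronal and vascular profiles. Only cells with 2000 to 40000 UMIs and less than 25% mitochondrial UMIs were used. This rule found 148 members among 4589 reporter cells and 7772 cells in all, with 3, 5, 28 and 112 in mice 4, 5, 6 and 7. The members were selected on these genes, so their levels of the gate genes are given as a description.

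The tumors arose in hGFAP-cre::TP53Fl/Fl::lsl-MYCN mice, and each of the 4 libraries is the tumor of 1 mouse. Mice 4 and 5 were taken at 43 days of age (P43) and mice 6 and 7 at 70 days (P70), and no mouse without the transgene is compared here. In these animals Cre recombinase is driven by a fragment of the human GFAP promoter, which is active in radial glia before birth, so that neurons, oligodendrocytes, ependymal cells and astrocytes that descend from them can all have lost Trp53 and switched on MYCN and FLUC at the Rosa26 locus. The reporter therefore marks descent from such a precursor with an active transgene and not malignancy by itself. All 4 carried 1 lsl-MYCN allele. The minced tumors were digested with papain, frozen as suspensions and sorted on viability alone before 10x Genomics 3′ libraries were made.

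Astrocytes clear glutamate and potassium, regulate water flow and supply neurons with lactate, and they are usually recognised by the glutamate transporters Slc1a2 and Slc1a3, the water channel Aqp4, the folate enzyme Aldh1l1 and the transcription factor Sox9. After injury or inflammation they become reactive, with more of the intermediate filaments Gfap and Vim, of the protease inhibitor Serpina3n and of complement C4b. Several of these genes are shared with radial glia, ependymal cells and olfactory ensheathing glia, the cells that wrap olfactory axons.

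The libraries of mice 4, 5, 6 and 7 held 15044263, 13106786, 18698291 and 40621958 UMIs. The members accounted for 35284, 77759, 237127 and 776677 of them, with medians of 11612, 14685, 6152.5 and 6354 UMIs per member. A count of 3 UMIs over the members, the limit that a count of 0 allows, equals 85.0, 38.6, 12.7 and 3.86 CPM (the UMIs of a gene summed over the cells of a class in a mouse, per 1000000 UMIs of those cells). All intervals and limits cover counting error only. The libraries shared 15 cell barcodes between pairs of mice, of which 5 were shared by cells within the limits and 0 involved a member. In vascular-gated and myeloid-gated cells, Y-linked genes summed to 232 CPM in mouse 4, which is labelled female, and to 0.640 CPM in mouse 5, which is labelled male. Mouse 6, labelled male, had 170 CPM and mouse 7, labelled female, had 0 CPM. The sex labels of both P43 libraries thus went against the counts, and values are given for each mouse so that the P70 mice can be read alone. Each age is held by 2 libraries, and age and library preparation cannot be told apart.

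The first question was how common these cells were at the 2 ages. Members made up 0.426% of the reporter cells of mouse 4 (3 of 705, 95% exact binomial interval 0.0878 to 1.24%) and 1.31% of mouse 5 (5 of 383, 0.425 to 3.02%). At P70 they made up 5.05% in mouse 6 (28 of 555, 3.38 to 7.21%) and 3.80% in mouse 7 (112 of 2946, 3.14 to 4.56%). Both P70 mice lay above both P43 mice. The difference between the ages was 3.56 percentage points (4.42% ± 0.879 against 0.866% ± 0.622, SD, n = 2 mice each), with p = 0.333 in an exact two-sided permutation test over mice, which is the smallest p that 2 mice against 2 can give. When members with any Sox10, Olig1 or Bcas1 UMI were left out, a choice made after seeing the data, the shares were 0.284%, 0.783%, 1.44% and 1.12% and the difference was 0.747 points. With at least 2 reporter UMIs asked for, the shares were 0.190% (1 member), 2.05%, 6.71% and 3.79% and the difference was 4.13 points. When each cell was first thinned at random to 2000 UMIs and the gate was read from the thinned counts, 0, 3, 18 and 69 members were left, or 0%, 1.09%, 4.13% and 2.67% of the reporter cells, and the P70 mice again lay above the P43 mice.

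**Figure D1:**
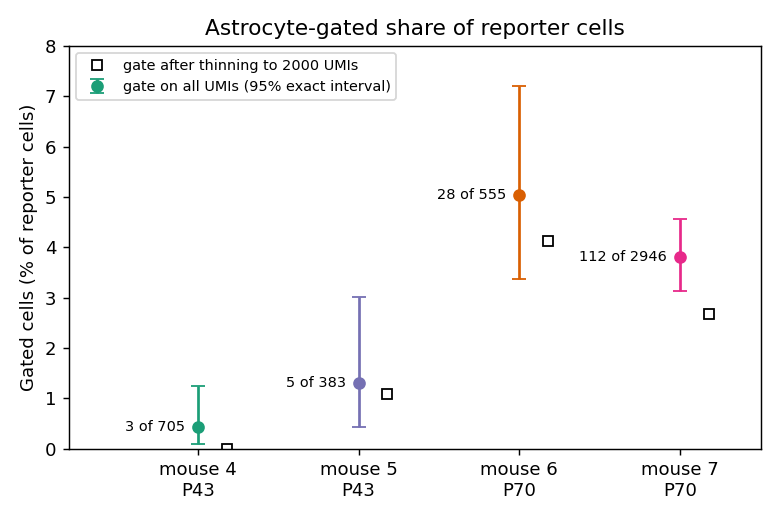
Share of reporter cells that met the astrocyte rule in each mouse (y axis, percent). Filled points with 95% exact binomial bars use all UMIs, open squares use cells thinned to 2000 UMIs, and both P70 mice (5.05% and 3.80%) lie above both P43 mice (0.426% and 1.31%).

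Free RNA in the droplets can give a cell a few UMIs of a gene that it does not express, so the rule was also read in cells that should meet neither part of it. Among vascular-gated cells (at least 2 of Rgs5, Vtn, Cldn5 and Flt1), 0 of 399, 0 of 621, 0 of 264 and 0 of 22 had 3 gate genes. Among myeloid-gated cells (at least 2 of C1qa, C1qb and Csf1r), 0 of 19, 0 of 42, 0 of 511 and 1 of 68 did, and that 1 cell was itself a member. Reporter UMIs were less specific. A single reporter UMI or more was found in 13.8%, 15%, 22.7% and 27.3% of the vascular-gated cells of mice 4 to 7 at median depths of 3111, 4027, 6599 and 4224 UMIs, with summed levels of 83.3, 38.8, 91.5 and 129 CPM. The members of mouse 4 had 1, 1 and 13 reporter UMIs, or 153, 58.3 and 1120 CPM. The members of mouse 5 ranged from 338 to 756 CPM, those of mouse 6 from 449 to 5542 CPM and those of mouse 7 from 172 to 8962 CPM. All 28 members of mouse 6 and 105 of the 112 in mouse 7 had at least 2 reporter UMIs, and 27 and 99 of them had UMIs of both FLUC and human MYCN. In mouse 7, 7 members had only 1 reporter UMI. Since members had to have a reporter UMI and vascular-gated cells did not, their levels cannot be set against this background, and the part of free RNA in members with 1 reporter UMI was not tested.

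The number of gate genes per member ran from 3 to 8 with a median of 4. Just inside the threshold, 2, 1, 6 and 34 members of mice 4 to 7 had exactly 3 gate genes. Just outside it, 5, 1, 11 and 38 reporter cells met all other limits with exactly 2. Members with all 8 genes were rare, 1 in mouse 6 and 2 in mouse 7. A further 102 of the 148 members had a UMI of 1 of the 3 oligodendrocytic gate genes, mostly Sox10 (63 members, against 16 with Olig1 and 23 with Bcas1). Only 46 members had none of these 3 genes, namely 2, 3, 8 and 33 in mice 4 to 7.

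The label of these cells was then checked against markers that the rule did not use, a list of 16 astrocyte-core genes (among them Aqp4, Slc1a2, Slc1a3, Gja1, Gjb6, Aldh1l1, S100b, Sox9, Atp1b2, Fgfr3, Mlc1, Plpp3, Clu, Sparcl1 and Glul). With each cell thinned to 2000 UMIs, a member had on average 3.67, 5.40, 2.79 and 2.61 of these genes in mice 4 to 7 (3.61 ± 1.28, SD, n = 4 mice), and without thinning 7.00, 10.4, 4.61 and 4.87. OL-gated reporter cells, which had at least 2 of Sox10, Olig1 and Bcas1 and make up the main oligodendrocyte-lineage tumor population, had 0.655, 0.850, 0.790 and 0.689 at 2000 UMIs. Neuronal-gated reporter cells of mouse 7 had 0.226, and myeloid-gated cells of the 4 mice between 0.119 and 0.368. Members therefore had more astrocyte-core genes per cell than OL-gated cells of the same mouse at 2000 UMIs. In mouse 4 this rests on 3 members, and the 1 left without ependymal and fibroblast profiles had 1 core gene. The list is less specific against vessels, in which Sparcl1 and Glul are also made (2.33, 2.22, 1.71 and 1.41 genes in vascular-gated cells). The few cells that met the astrocyte part of the rule without any reporter UMI, 2 in mouse 5 and 4 in mouse 7, had 6 and 2.75, and those of mouse 5 had 8 ependymal genes each.

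Most members nevertheless had few defining astrocyte markers. Aqp4 was found in 1 of 3, 3 of 5, 5 of 28 and 12 of 112 members, Aldh1l1 in 0, 0, 3 and 8, Slc1a2 in 1, 3, 4 and 6, and Sox9 in 1, 4, 3 and 31. At least 8 of the 16 core genes were present in 1, 4, 3 and 16 members, while 51 of the 148 had 3 or fewer. Because these counts and the profiles described next go against a uniform astrocyte identity, the cells are named here by the rule that chose them.

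**Figure D2:**
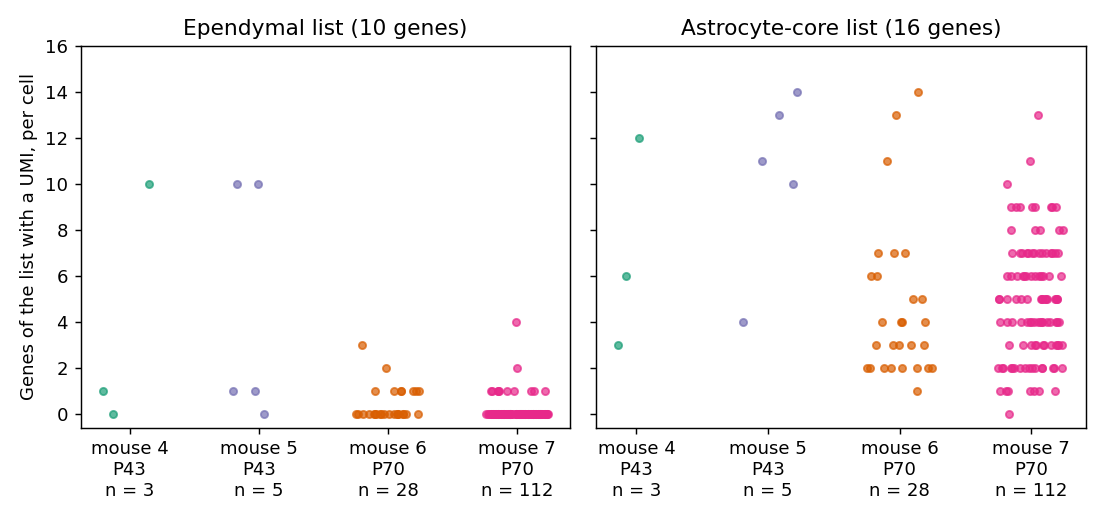
Number of ependymal genes (left, of 10) and of astrocyte-core genes (right, of 16) with a UMI in each member, by mouse, without thinning. Each point is 1 cell, and 3 P43 cells hold all 10 ependymal genes while the P70 members spread from 0 to 14 astrocyte-core genes.

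At P43 the 8 members were a mixture. In 3 of them, 1 in mouse 4 and 2 in mouse 5, all 10 genes of an ependymal list had UMIs (Foxj1, the master regulator of motile cilia, with Ccdc153, Tmem212, Rarres2, Dynlrb2, Pifo, Rsph1, Ccdc113, Ak7 and Cfap126). These 3 cells held 129 of the 132 Nnat UMIs of the mouse 4 members and 443 of the 445 in mouse 5, as well as 67 of 67 and 233 of 255 UMIs of Mt3, the brain metallothionein. Their Foxj1 levels in mice 4 and 5 were 933 and 1218 CPM. Leaving them out lowered Nnat from 3741 to 165 CPM (mouse 4) and from 5723 to 68.2 CPM (mouse 5). Mt3 without them was at 0 and 750 CPM, so that the other members of mouse 5 still stood above the P70 members in Mt3.

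The other P43 members differed from each other. In mouse 4, a cell of 6526 UMIs had all 6 fibroblast genes of the list (Col1a1, Col1a2, Dcn, Lum, Slc6a13 and Pdgfra) with 70 UMIs of Vtn, and a cell of 11612 UMIs had 8 of 8 cell cycle genes and 6 of 12 oligodendrocytic genes. In mouse 5, a cell of 2733 UMIs had 14 of the 16 astrocyte-core genes, a cell of 14685 UMIs had 11 of them together with 46 UMIs of Olig1 and 110 of Fabp7, and a cell of 11903 UMIs had 4 UMIs of Gfap and 8 of the transcription factor Foxd3. This last cell was the only P43 member with Gfap. No summed P43 level can therefore stand for one kind of cell, and the P70 members are described separately below.

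Of the 8 gate genes, Gfap encodes the intermediate filament by which astrocytes are commonly stained. In mice 4 and 5 it was at 0 and 51.4 CPM. It stood at 1662 CPM in mouse 6 (394 UMIs, 95% exact Poisson interval 1502 to 1834 CPM), and in mouse 7 at 229 CPM (178 UMIs, 197 to 265 CPM). OL-gated cells had 0.297, 0, 5.11 and 1.93 CPM. In mouse 6, 21 of 28 members had a Gfap UMI, but 3 cells held 274 of the 394 UMIs. These 3 were also the members of that mouse with at least 8 astrocyte-core genes, and without them Gfap was at 633 CPM. Gfap was found in 28 of 112 members of mouse 7, so that a Gfap-positive cell was the exception there.

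The serine protease inhibitor Serpina3n and the complement factor C4b, both induced in reactive glia, followed Gfap in their order over mice. Serpina3n was at 0, 12.9, 822 and 308 CPM in the members of mice 4 to 7 and C4b at 0, 51.4, 620 and 286 CPM. At P70, C4b was present in 27 of 28 members of mouse 6 and 63 of 112 of mouse 7, and Serpina3n in 26 and 57, so that both were more widespread among the members than Gfap. Reads of C4b and of the Serpina3 genes can be shared with close copies (C4a and other Serpina3 members), and these levels are uncertain to that extent. Igfbp5, which binds insulin-like growth factors, was at 85.0, 51.4, 536 and 337 CPM. Unlike Gfap it was higher in mouse 4 than in mouse 5, on 3 and 4 UMIs.

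The remaining gate genes did not follow the order of Gfap over mice either. Aldoc, a brain isoform of the glycolytic enzyme aldolase, was at 28.3, 51.4, 287 and 377 CPM and was the gate gene found in most members of mouse 7 (86 of 112). Ntrk2, the receptor of brain-derived neurotrophic factor, was at 680, 502, 152 and 225 CPM, and Mt3 at 1899, 3279, 202 and 115 CPM. In mouse 6 all 48 Mt3 UMIs came from 3 cells, those with at least 8 core genes, which also held 52 of the 68 Aldoc UMIs and 25 of the 36 Ntrk2 UMIs. The other 25 members of mouse 6 were at 84.4 CPM of Aldoc and 58.0 CPM of Ntrk2. Nnat at P70 was at 63.3 and 198 CPM, beside 91.2 and 28.9 CPM in the OL-gated cells, and was the only gate gene that was not higher in the members of both P70 mice. On the GRCm38 genome (GENCODE vM21), Gfap lies at chr11:102887336-102900912, Aldoc at chr11:78322968-78327781, Nnat at chr2:157560078-157562522, Serpina3n at chr12:104406729-104414329 and Igfbp5 at chr1:72857932-72874884. Mt3 lies at chr8:94152607-94154146, C4b at chr17:34728380-34743882 and Ntrk2 at chr13:58806569-59133970.

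**Figure D3:**
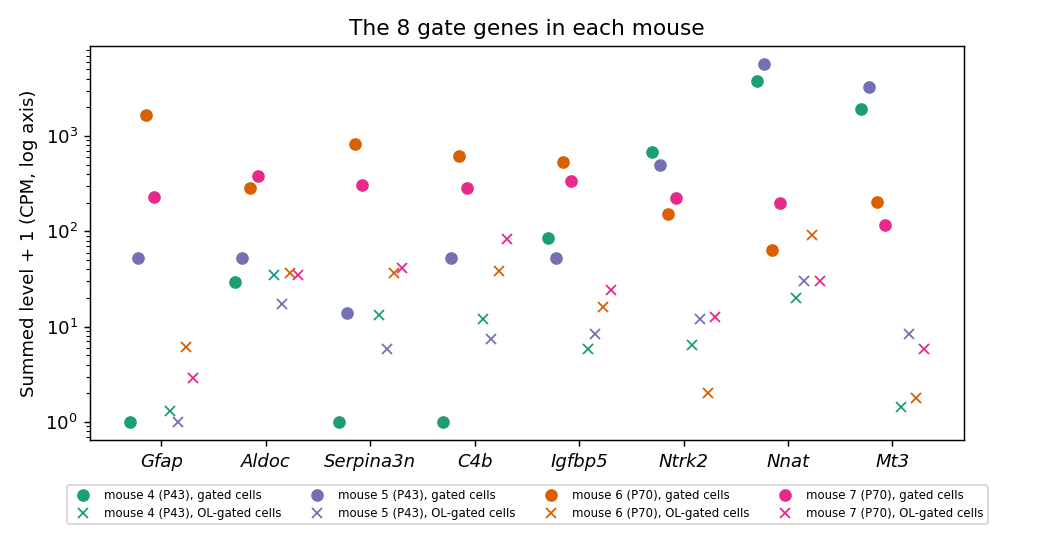
Summed level (CPM + 1, log axis) of the 8 gate genes in members (circles) and OL-gated reporter cells (crosses) of each mouse, shown by colour. Gfap, Serpina3n, C4b and Igfbp5 are highest in mouse 6, while Nnat and Mt3 are highest in the P43 mice, where 3 cells with ependymal genes carry most of their UMIs.

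Within the P70 members, 2 partly separate profiles stood out after the values had been seen, so they are described without a test. Foxd3, a transcription factor of neural crest derivatives that belonged to a list of 7 olfactory ensheathing genes (among them Frzb, Npy, Prss56, Ngfr and Mybpc1), was found in 16 of 28 members of mouse 6 and 14 of 112 of mouse 7. Aqp4 was found in 5 and 12. Only 1 cell had both, in mouse 6. Sox10 was also found in 13 and 11 of the Foxd3 members of mice 6 and 7, and the rule bars Olig1 and Bcas1 from any member with Sox10. With cells thinned to 2000 UMIs, Foxd3 was seen in 39.3% of members of mouse 6 and 3.57% of mouse 7, beside 0.375% and 0.195% of OL-gated cells and 0% of vascular-gated and myeloid-gated cells. These shares come from 1 random thinning, and over all possible thinnings of the same counts the expected shares of members were 29.4% and 5.70%.

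In mouse 6, the 15 members with Foxd3 and without Aqp4 had a median of 3 astrocyte-core genes at a median of 8987 UMIs. Their summed levels were 818 CPM of Gfap, 571 CPM of Serpina3n, 529 CPM of C4b and 254 CPM of Sox10 (the glial factor shared by oligodendrocytes and neural crest glia). Clu and Mt3 were at 0 CPM in them. The 4 members of mouse 6 with Aqp4 and without Foxd3 had a median of 12 core genes at 13268 UMIs, with 5236 CPM of Gfap, 1047 CPM of Aldoc, 895 CPM of Aqp4, 762 CPM of Slc1a2, 1390 CPM of Slc1a3 and 1523 CPM of Clu. In C4b and Sox10 these 4 cells stood at 952 and 190 CPM, and in Serpina3n at 1028 CPM. Aqp4 is itself a core gene, so a split by Aqp4 sets the core counts in part, here and in mouse 7. The core counts of these sets are without thinning, and the part of depth in them was not tested.

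In mouse 7 the 2 sets again differed in core genes and Clu, but C4b and Serpina3n ran the other way. Its 14 members with Foxd3 had a median of 3 core genes, with 287 CPM of Gfap, 600 CPM of C4b, 426 CPM of Serpina3n, 296 CPM of Sox10 and 17.4 CPM of Clu. Its 12 members with Aqp4 had a median of 7.50, with 623 CPM of Gfap, 94.0 CPM of C4b, 141 CPM of Serpina3n, 23.5 CPM of Sox10 and 1152 CPM of Clu. The median depths of these sets were 6775 and 7050 UMIs. The largest set of mouse 7, 86 members with neither gene, had a median of 5 core genes, 160 CPM of Gfap, 3649 CPM of Fabp7, the fatty acid binding protein of radial glia, and 654 CPM of Ptprz1. The 16 members of mouse 7 with at least 8 core genes held 6618 CPM of Fabp7 and 430 CPM of Gfap, beside 2730 and 187 CPM in the other 96, and none of the 16 had Foxd3. Of the other ensheathing genes, Frzb was found in 6 and 31 members of mice 6 and 7, and Npy in 2 and 15, while Prss56 and Mybpc1 had no UMI in any class of cells compared. Of the 7 genes, 3 were at least 2-fold higher in members than in OL-gated cells of both P70 mice (Frzb, Npy and Foxd3). Lower genes numbered 0, beside 3.29% higher and 2.07% lower among all 14029 genes compared. The list's median log2 ratios, defined below, were 1.34 and 0.36. Foxd3 itself stood out only after the values had been seen. The list summed to 329 and 171 CPM in these members, beside 12.0 and 15.6 CPM in OL-gated cells. Within the members Frzb did not follow Foxd3. It was at 42.3 and 43.5 CPM in members with Foxd3 and without Aqp4, beside 53.1 and 67.6 CPM in those with neither gene. Npy was at 14.1 and 78.3 CPM in the former, beside 0 and 74.6 CPM in the latter. The profile is called here by Foxd3 alone.

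**Figure D4:**
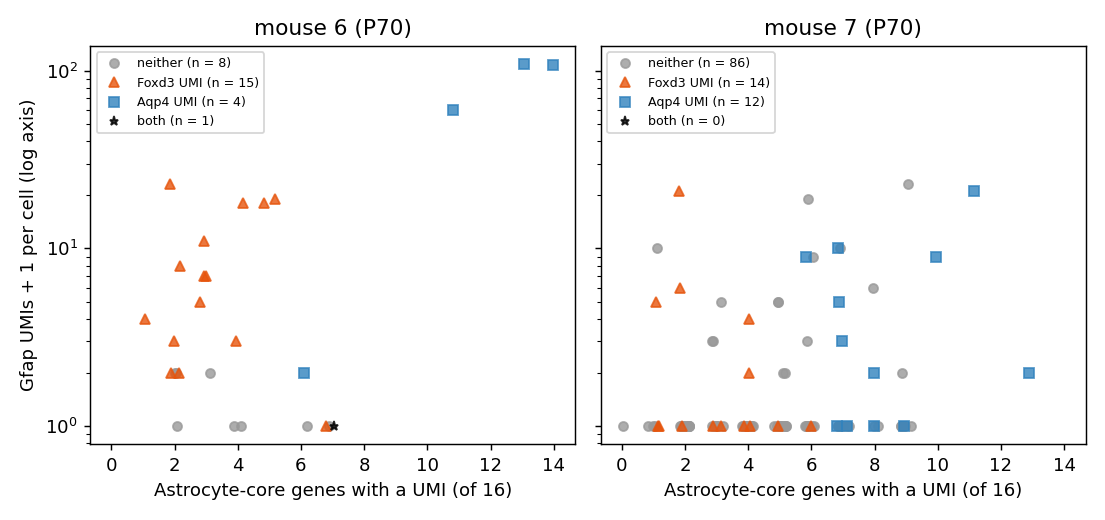
Gfap UMIs + 1 (log axis) against the number of astrocyte-core genes with a UMI in each member of the P70 mice, coloured by whether the cell had a UMI of Foxd3 or of Aqp4. In mouse 6 the 3 cells with the most Gfap carry 11 to 14 core genes and Aqp4, and the Foxd3 cells hold fewer core genes at intermediate Gfap counts. Aqp4 is itself a core gene, and the counts are without thinning.

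The members of mice 6 and 7 were next set beside the OL-gated reporter cells of the same mouse, 267 in mouse 6 and 2057 in mouse 7. Ratios are log2 of CPM with 10 CPM added to both sides, and a gene is counted as higher or lower when the ratio was at least 2-fold in both mice. Among 14029 genes with a UMI in members or OL-gated cells of each mouse, 3.29% were higher and 2.07% were lower in the members, and the median ratio over these genes was -0.04 in mouse 6 and -0.02 in mouse 7. Since the rule separated the classes by expression and both are described from the same cells, these counts carry no test. Each count of higher or lower list genes below is to be read beside these 2 shares. The members were shallower, with medians of 6152.5 and 6354 UMIs against 8928 and 12114 in the OL-gated cells, and the part of depth in these ratios was not tested.

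Outside the gate lists, the genes with the highest ratios in both mice were led by Cebpd, a transcription factor of acute-phase responses, and by the lipid carriers Apoe and Clu. Cebpd was at 578 and 516 CPM in the members of mice 6 and 7, against 9.19 and 8.76 CPM in the OL-gated cells (log2 ratios 4.94 and 4.81). Apoe was at 6937 and 2733 CPM against 187 and 114 CPM (5.14 and 4.47). Apoe was also high in myeloid-gated cells, at 20303 and 48060 CPM, whereas the neuronal-gated cells of mouse 7 had 6.48 CPM. Clu, which these myeloid cells listed at 0.302 and 0 CPM, was at 367 and 270 CPM in members against 1.28 and 3.82 CPM. In mouse 6, 92.0% of the Clu UMIs came from 3 cells, in mouse 7 27.6%.

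The other genes of this leading group fall into several kinds. Sparcl1 (log2 ratios 5.08 and 4.09) and Agt, angiotensinogen (3.29 and 3.07), are made by astrocytes, and Sparcl1 also stood at 1350 CPM in the vascular-gated cells of mouse 6. Sparc (3.72 and 3.53), Vim (3.41 and 3.02), Ahnak (3.61 and 3.71) and the heparan sulphate proteoglycan Sdc4 (3.92 and 3.07) belong to the matrix, cytoskeleton and cell surface. Ccnd2, a D-type cyclin, was at 274 and 194 CPM against 2.30 and 3.97 CPM in OL-gated cells, and neuronal-gated cells of mouse 7 also had 184 CPM of it. Pdlim4 was at 236 and 162 CPM against 4.34 and 2.78 CPM. The remaining genes, Egr1, Junb and Ccn1, are immediate early genes.

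**Figure D5:**
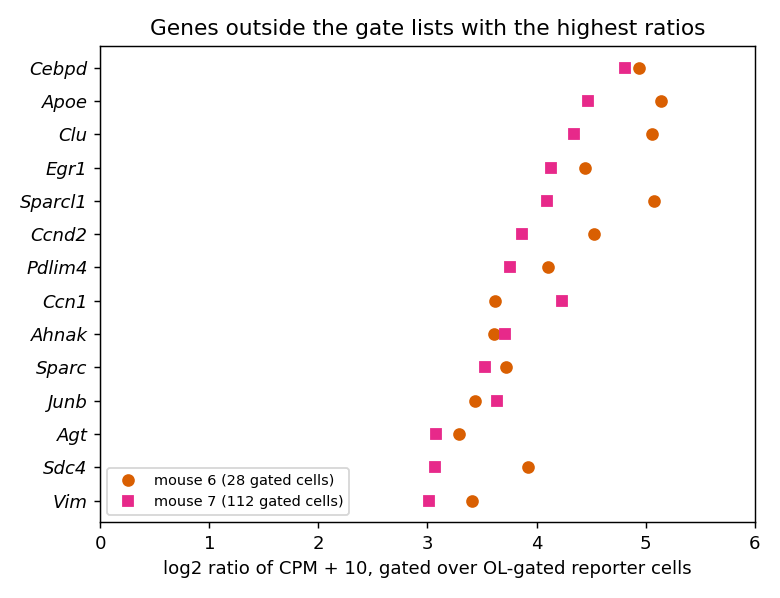
Log2 ratio of CPM + 10 in members over OL-gated reporter cells for 14 of the 15 genes outside the gate lists with the highest ratios in both P70 mice. Circles are mouse 6 and squares mouse 7, and all 14 lie above 3 in both.

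Of the 16 astrocyte-core genes, 9 were higher in the members of both mice (among them Aqp4, Slc1a3, Aldh1l1, Sox9, Atp1b2, Mlc1, Clu and Sparcl1) and 0 were lower, beside 3.29% and 2.07% of all genes. In mouse 6 most of this came from the 3 cells with at least 8 core genes, which held 73 of the 84 Slc1a3 UMIs, 15 of 16 of Sox9, 16 of 17 of Aldh1l1 and 22 of 22 of Mlc1. The other 25 members stood at 58.0 CPM of Slc1a3, beside 37.5 CPM in OL-gated cells, at 5.28 CPM of Sox9 and of Aldh1l1 and at 0 CPM of Mlc1, so these 4 genes were higher in mouse 6 through 3 cells. The list's median ratio was 3.07 in mouse 6 and 1.66 in mouse 7. Its summed level was 3488 and 1831 CPM in members, 499 and 366 CPM in OL-gated cells and 2255 and 2127 CPM in vascular-gated cells. Slc1a3, the glial glutamate transporter GLAST, was at 354 and 206 CPM in members against 37.5 and 30.8 CPM. Aqp4 was at 202 and 43.8 CPM against 0 and 0.334 CPM, with 46 of its 48 UMIs in mouse 6 in 3 cells. The gap-junction gene Gjb6, at 255 CPM in mouse 4 members, was at 8.43 CPM in those of mouse 6 and had no UMI among the 112 members of mouse 7. S100b and Glul did not reach 2-fold in either mouse, with ratios of -0.67 and 0.30 for S100b, which differed in direction, and 0.47 and 0.20 for Glul. Of 11 genes of glutamate, lactate and water handling, 3 were higher (Slc1a3, Aqp4 and Ldhb), while the lactate transporter Slc16a1 and the glucose transporter Slc2a1 had ratios between -0.32 and 0.31.

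Radial glial and neural stem genes, which radial glia and astrocytes share in part, came next. Of 16 genes, 7 were higher in both mice (Nes, Sox2, Hes1, Hopx, Fabp7, Ptprz1 and Id4) and 0 were lower, with medians of 0.93 and 1.16. Fabp7 was at 737, 1659, 1118 and 3406 CPM in the members of mice 4 to 7, against 152, 104, 207 and 180 CPM in OL-gated cells, and was found in 27 of 28 and 103 of 112 P70 members. The matrix protein tenascin C (Tnc) stood at 21.1 and 149 CPM at P70, with a UMI in only 2 members of mouse 6. Hes5, a Notch target, was at 21.1 and 131 CPM, beside 142 and 109 CPM in OL-gated cells. Egfr, a gene of activated neural stem cells, had 1 UMI-positive member at P70. Fabp7, Tnc and Hes5 thus stood higher in the members of mouse 7 than in those of mouse 6. Hes1 (139 and 103 CPM) and Nes (84.3 and 64.4 CPM) stood higher in mouse 6, and both exceeded OL-gated cells at P70. Sox2, a stem cell transcription factor, was at 131 and 243 CPM in P70 members. At 2000 UMIs the single thinning found it in 0% of mouse 6 members and 11.2% of OL-gated cells, and in 38.4% and 17.5% in mouse 7. The expected shares over all thinnings, computed after seeing that 0%, were 19.4% and 11.4% in mouse 6 and 36.0% and 17.3% in mouse 7.

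Reactive genes were higher in part. Of 11 genes induced in reactive astrocytes of several kinds, 6 were higher in both mice (Vim, Cd44, Cp, S1pr3, Hspb1 and Cxcl10), with medians of 2.90 and 1.18. Vim was at 3180 and 2307 CPM against 291 and 276 CPM and was present in 28 of 28 and 107 of 112 members. Lcn2, a secreted reactive marker, had 33 UMIs in mouse 6, all in 1 cell, and 0 in mouse 7. Of 11 genes linked to neuroinflammatory reactivity, 4 were higher (Gbp2, Psmb8, Ggta1 and Fbln5), with medians of 1.58 and 0.22. Of 12 genes linked to ischemic reactivity, 3 were higher (Emp1, S100a10 and Ptx3), with medians of 1.04 and 0.45. In mouse 6, 10 of the 11 Ptx3 UMIs came from the 3 cells with at least 8 core genes. Amigo2, Ptgs2 and Tgm1 of these lists had no UMI in any P70 member. Both narrower lists had a lower median in mouse 7 than in mouse 6.

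Gfap and Socs3 are both known targets of STAT3, the transcription factor that relays cytokines of the interleukin 6 family in astrocytes. Of 10 genes of this pathway, 4 were higher in both mice, the cytokine receptor subunit Il6st, the kinase Jak1, Stat3 and the feedback inhibitor Socs3, with medians of 1.67 and 0.79 over the list. Socs3 was at 0, 12.9, 283 and 164 CPM in the members of mice 4 to 7, against 4.61, 2.42, 18.6 and 24.7 CPM in OL-gated cells, and Stat3 at 56.7, 77.2, 160 and 155 CPM against 23, 41.5, 38.6 and 49.2 CPM. The oncostatin M receptor Osmr was at 50.6 and 7.73 CPM at P70. The promoters of Gfap and Socs3 are shown because both genes, like Stat3, were higher in the members. They come from RefSeq (GRCm38.p6, minus strand, 250 bases before to 50 after the annotated start, 5′ to 3′), Gfap at chr11:102897151-102897450 and Socs3 at chr11:117969317-117969616, with matches to the STAT motif TTCNNNGAA, which reads the same on both strands, in capitals.
Gfap: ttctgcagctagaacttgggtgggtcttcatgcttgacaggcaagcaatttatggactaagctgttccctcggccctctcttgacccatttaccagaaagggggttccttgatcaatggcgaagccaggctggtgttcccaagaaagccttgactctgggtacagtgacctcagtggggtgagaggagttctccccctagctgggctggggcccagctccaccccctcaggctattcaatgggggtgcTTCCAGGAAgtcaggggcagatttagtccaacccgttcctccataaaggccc
Socs3: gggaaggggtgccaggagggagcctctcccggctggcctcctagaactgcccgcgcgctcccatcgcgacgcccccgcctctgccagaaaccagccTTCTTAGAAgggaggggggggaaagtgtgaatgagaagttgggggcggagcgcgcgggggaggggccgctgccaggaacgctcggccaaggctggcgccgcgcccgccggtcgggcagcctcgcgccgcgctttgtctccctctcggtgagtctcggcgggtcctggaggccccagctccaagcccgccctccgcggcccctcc
The match begins 2 bases before the RefSeq start of Gfap and 154 bases before that of Socs3. In GENCODE vM21 the 2 genes reach further 5′, to chr11:102900912 and chr11:117970047. Both windows therefore lie inside those gene spans. Such a match was present in 4 of the 17 gate and pathway genes with a promoter in the table (Gfap, Aldoc, Socs3 and Cish) and in 9.55% of the 27025 genes of the whole table, and it describes letters and not binding.

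All 9 immediate early and stress genes were higher in the members of both mice, with medians of 2.89 and 2.99. Fos was at 340, 784, 1531 and 1580 CPM in the members of mice 4 to 7 and at 73.8, 55.0, 79.2 and 190 CPM in OL-gated cells. Egr1 was at 645 and 614 CPM at P70 against 20.2 and 25.6 CPM. Vascular-gated cells had 1017 and 1409 CPM of Fos at P70 and myeloid-gated cells 1365 and 1533 CPM. Summed over the list, members were at 5238 and 5946 CPM at P70, OL-gated cells at 550 and 1040 CPM and neuronal-gated reporter cells, 15 of them in mouse 6, at 366 and 618 CPM. The members thus stood above both of these reporter classes, and vascular-gated cells (5441 and 9390 CPM) stood above the members and myeloid-gated cells (4360 and 5349 CPM) below them. Reads of Hspa1a and Hspa1b, 2 genes of this list, can be shared. These genes are known to respond to tissue dissociation, and the part of dissociation in these levels was not tested.

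Antigen presentation genes differed between the 2 P70 mice. The class I heavy chain H2-D1 was at 932 and 72.1 CPM in the members of mice 6 and 7, H2-K1 at 485 and 36.1 CPM, and their light chain B2m at 730 and 130 CPM. In OL-gated cells of the same mice H2-D1 was at 92.9 and 38.0 CPM and B2m at 99.8 and 93.2 CPM. Within mouse 6, H2-D1 was at 1389 CPM in the 15 Foxd3 members and 343 CPM in the 4 Aqp4 members, whereas in mouse 7 it was at 52.2 CPM in the 14 Foxd3 members and 94.0 CPM in the 12 Aqp4 members. Reads of H2-D1 and H2-K1 can be shared with related class I genes. Mouse 6 also held the most myeloid-gated cells, 511 against 68 in mouse 7, with 4268 and 1566 CPM of H2-D1, and the part of free RNA was not tested. Of the 12 class I and interferon genes only Psmb8, an immunoproteasome subunit, was at least 2-fold higher in both mice (medians 1.17 and 0.34). Of 8 complement genes only the complement inhibitor Cd59a was, at 274 and 27.0 CPM against 0.255 and 0.594 CPM (medians 1.13 and 0.08).

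Growth factor and metal genes were read next. Of 8 genes of insulin-like growth factor binding none reached 2-fold in both mice (medians 1.31 and 0.25), and the same held for 8 neurotrophin genes (0 and -0.003), in which Bdnf, the ligand of the gate gene Ntrk2, had 1 UMI-positive member at P70. Of 7 metallothionein and metal genes only the zinc transporter Slc39a14 was higher (medians 0.99 and 0.13). Mt1 was at 3798, 8282, 1092 and 1133 CPM in the members of mice 4 to 7, and 12944 CPM in the 2 ependymal-profile cells of mouse 5 alone.

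Proliferation genes were low in the P70 members. At 2000 UMIs per cell, cells with at least 2 of 8 cell cycle genes were counted (Top2a, Tpx2, Mki67, Cenpf, Ccnb1, Ube2c, Cdk1 and Birc5). They were 0 of 28 members of mouse 6 (0%, 0 to 12.3%) and 12 of 112 of mouse 7 (10.7%, 5.66 to 18%). The OL-gated cells of these mice stood at 39.7% (33.8 to 45.8%) and 36.2% (34.1 to 38.3%). Vascular-gated cells had 10.2% and 9.09% and myeloid-gated cells 3.91% and 4.41%. The shares without thinning were 7.14% and 16.1% in members and 61.0% and 60.9% in OL-gated cells. At P43, 1 of 3 and 0 of 5 members passed, the 1 cell being that with 6 oligodendrocytic genes. All 8 cell cycle genes and all 8 S phase genes had ratios below 0 in both mice, as did 37.5% of all genes, with 4 and 2 of them beyond 2-fold (medians -3.57 and -1.03, and -1.30 and -0.95). Top2a, the topoisomerase of dividing cells, was at 8.43 and 116 CPM in members against 324 and 390 CPM.

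Nucleolar and ribosome biogenesis genes are a known part of the response to MYC proteins. Of 12 such genes 2 were lower by the 2-fold limit in both P70 mice (Srm and Bop1), beside 2.07% of all genes, and the medians of the list were -0.89 and -0.54. Of the 12 genes 11 had ratios below 0 in both P70 mice, beside 37.5% of all genes, the exception being Rrs1 (0.08 and -0.24). Nucleolin (Ncl) was at 1049, 926, 1307 and 1590 CPM in the members of mice 4 to 7 against 2350, 2557, 2466 and 2799 CPM in OL-gated cells, and its log2 ratios at P70 were -0.91 and -0.81. The neuronal-gated cells of mouse 7 had 4107 CPM. The transgene transcripts themselves differed in direction between the P70 mice. FLUC was at 425, 283, 1362 and 1416 CPM in members and 685, 1796, 1786 and 1047 CPM in OL-gated cells, and human MYCN at 0, 180, 1109 and 810 CPM against 250, 1213, 1430 and 672 CPM. At P70 the log2 ratios of FLUC were -0.39 and 0.43 and those of human MYCN -0.36 and 0.27. Members were chosen for at least 1 reporter UMI, which bears on these levels. Endogenous Mycn had no UMI in any member and Myc was at 4.22 and 9.01 CPM at P70.

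Of 10 p53 target genes none was 2-fold higher or lower in both mice (medians 0.20 and 0.03). Cdkn1a, which encodes the cell cycle inhibitor p21, was at 12.7 CPM in mouse 6 (3 UMIs) and had no UMI in the 112 members of mouse 7, where vascular-gated cells had 212 and 359 CPM and myeloid-gated cells 359 and 193 CPM. At P43 it was at 113 and 51.4 CPM in members, with all of its UMIs in the 3 ependymal-profile cells. Mdm2, a p53 target that degrades p53, was at 142 and 206 CPM in the P43 members and 29.5 and 23.2 CPM at P70. Trp53 transcripts were seen in 45 of 112 members of mouse 7, but a count at the 3′ end of the gene need not cover the floxed exons and so does not check the deletion.

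Markers of other cell types were read in full. Of 12 oligodendrocytic genes 9 were lower in members than in OL-gated cells of both mice (among them Olig2, Enpp6, Gpr17, Cldn11, Mbp, Mog, Mag and Cnp, medians -2.64 and -2.18) and 0 were higher, a contrast that the rule set in part. The list still summed to 2551 and 1555 CPM in P70 members, the largest sum among these lists of other cell types, beside 9085 and 8470 CPM in OL-gated cells, 281 and 368 CPM in vascular-gated cells and 166 and 234 CPM in myeloid-gated cells. Its part in the members' other values was not tested. Mbp, myelin basic protein, stood at 228 and 283 CPM in P70 members, beside 1847 and 2060 CPM in OL-gated cells. Of 11 neuronal genes 1 was lower (Tubb3), and the list summed to 25.3 and 259 CPM, with Sox11 at 171 CPM as its most counted gene in mouse 7. The 8 vascular genes outside the gate summed to 97.0 and 45.1 CPM against 3344 and 2918 CPM in vascular-gated cells. The 10 immune genes summed to 42.2 and 7.73 CPM against 17074 and 11378 CPM in myeloid-gated cells, with Cd3g, Nkg7, Cd79a, S100a8 and S100a9 at 0. The 6 fibroblast genes summed to 645 CPM in mouse 6, where 1 cell held all 6 of them and all 79 Vtn UMIs of the members, and to 38.6 CPM in mouse 7. The 10 ependymal genes summed to 80.1 and 21.9 CPM at P70 against 8134 and 8784 CPM in the P43 members, and the 6 choroid plexus genes to 8.43 and 1.29 CPM. At most 3 ependymal genes were found in a member of mouse 6 (1 cell of 14582 UMIs) and 4 in a member of mouse 7 (1 cell of 4028 UMIs).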

How the data were processed

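The deposited values are raw UMI counts per gene and barcode, which the authors made with Cell Ranger 6.0.2 on mm10 extended by FLUC and human MYCN, without normalization. Libraries of other mice are not analysed here. From the deposited counts, cells with 2000 to 40000 UMIs and less than 25% mitochondrial UMIs were kept, gates were read from genes with at least 1 UMI, and counts were summed per class and mouse (Python 3.11.15, numpy, scipy). The members, gene lists and cut-offs were chosen with earlier results of these data known. Thinning used 1 seeded draw per cell, and the expected share over all draws (hypergeometric) was added after seeing the data. Thinning and ratios were tested on simulated data. Ages were compared over mice by an exact permutation test. Tests of single genes with age, planned for at least 10 members per mouse, were not made, as mice 4 and 5 held 3 and 5. Named genes are those of the rule and lists and the 15 genes outside the gate lists with the highest ratio over OL-gated cells in both P70 mice, and some genes of the lists are not reported here. Positions came from GENCODE vM21, which held 284 of the 286 genes looked up, the others being the 2 reporter features. Doublets were called with Scrublet (scanpy 1.11.5), which marked 45 of 7772 cells and 0 members. The calls were uneven, at 2.12%, 0.331%, 0.495% and 0.0931% of the cells of mice 4 to 7. Only 3 of 3224 cells were called in mouse 7, and the part of doublets in the members was not tested further.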

Additional observations from a re-analysis of the deposited data

Results flagged for a closer look

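Below the depth limit, 7 further barcodes with fewer than 2000 UMIs and less than 25% mitochondrial UMIs met the gene part of the rule (0, 1, 5 and 1 in mice 4 to 7), more than the 3 that a count of 0 allows. They were left out of the values in the report. A lower limit of 1000 UMIs took in those of mice 6 and 7 only. It raised the members from 148 to 154 (33 in mouse 6 and 113 in mouse 7), while mouse 5 stayed at 5. A further 2 barcodes, both in mouse 6, met it with at least 25% mitochondrial UMIs, and 0 did so above 40000 UMIs.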

How the results depend on the processing

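The share difference between the ages was positive under every alternative run, from 0.747 percentage points, when members with any Sox10, Olig1 or Bcas1 UMI were left out, to 4.13, when at least 2 reporter UMIs were asked for. Leaving out 1 mouse at a time gave 2.94 to 4.18. The number of members was 90 with the gate read from counts thinned to 2000 UMIs, 46 with no Sox10, Olig1 or Bcas1 UMI (an alternative chosen after seeing the data) and 36 to 145 with 1 mouse left out, the lowest without mouse 7. Other settings of the limits or the gate gave 105 to 154, and leaving out members with ependymal or fibroblast genes, also chosen after seeing the data, gave 141. Astrocyte-core genes per member averaged 6.72 without thinning and 3.02 to 3.95 with 1 mouse left out. At 2000 UMIs mouse 4 fell to 1, in 1 member, with at least 2 reporter UMIs or without ependymal or fibroblast members. Mouse 5 ranged from 3.25 (mitochondrial share under 10%) to 7.33 (gate read from thinned counts). Mouse 6 rose to 4.50 with no Sox10, Olig1 or Bcas1 UMI. Of 460 gene ratios under alternatives 385 moved by less than 1 SD between mice 6 and 7, 74 moved by more and 1 reversed. The reversed ratio was that of Nnat in mouse 6, at 0.39 with no Sox10, Olig1 or Bcas1 UMI against -0.47. Under that setting 29 ratios moved by more than 1 SD and 16 did not. With the gate read from thinned counts 25 moved by more and 21 did not. Each other setting moved 0 to 8 ratios. The causes were not tested. No paired analysis was possible because replicate numbers were given in accession order and the single test compares 2 mice with 2. Mice 4 and 5 held 3 and 5 members, which limits every P43 level.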
